A study of Mus musculus with 13 samples.

Results

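The 10 genes described here mark smooth muscle cells and pericytes, the contractile and supporting cells of vessel and airway walls: Acta2, Actg2, Myh11, Tagln, Cnn1, Smtn, Lmod1, Mylk, Des and Pdgfrb. They were chosen by symbol, as the rows of the expression tables that carry these names, so that 10 of 46679 gene IDs are described. No measured value was part of this rule, but earlier results of these data were known when the genes were chosen. All 10 passed the filter on low counts in every comparison. RNA was sequenced from lungs and mammary tumors to ask how a distant mammary tumor affects gene expression in the lung, with an adjustment for preparation batch.

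All mice were female, of the FVB strain and 10 weeks old. The 4 normal lungs came from mice 6886, 6887, 6888 and 6893, which carried no tumor. The 4 tumor-bearing lungs came from mice 6877, 6879, 6880 and 6881, into whose inguinal mammary fat pads 250000 cells of Met1, a mouse mammary tumor line, had been injected at 8 weeks of age, 2 weeks before the tissue was taken. The 3 tumors came from mice 6877, 6880 and 6881 of that group, so that every tumor is a graft of 1 cultured line in host tissue. Preparation batch 1 held normal lungs 6886 and 6888 and tumor-bearing lungs 6879, 6880 and 6881. Batch 2 held normal lungs 6887 and 6893, tumor-bearing lung 6877, all 3 tumors, and a repeat library each of normal lungs 6886 and 6888, which is used only where named.

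Smooth muscle cells shorten when calcium activates the kinase Mylk, which phosphorylates the light chain of smooth muscle myosin and lets its heavy chain Myh11 pull on actin filaments made of Acta2 and Actg2. Pericytes wrap capillaries, are recruited by platelet-derived growth factor from the endothelium through the receptor Pdgfrb, and in the lung share the tissue with vascular smooth muscle, airway smooth muscle and myofibroblasts. Many contractile genes of these cells are switched on by serum response factor, which binds a DNA element named the CArG box together with the coactivators of the myocardin family. In the mammary gland the myoepithelial cells around ducts and alveoli also make several of these contractile proteins.

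Libraries held 8321037 to 13982903 estimated counts. Levels are given as CPM, which are counts relative to a library size scaled by a trimmed mean of M values, or as TPM, which also correct for gene length. Fold changes and adjusted p are from the quasi-likelihood test of edgeR with preparation batch as a term and Benjamini-Hochberg adjustment over all genes tested, and a gene is called changed when its adjusted p is below 0.05. The tumors carried the epithelial marker Epcam at 347 ± 88.6 CPM (SD, n = 3) against 34.2 ± 2.86 CPM in normal lung (SD, n = 4). Of the 6 epithelial markers listed, Epcam, Krt18 and Krt8 were called higher against normal lung, Krt19 (log2 −4.27 ± 0.22) and Krt7 (−1.13 ± 0.32) were called lower, and Cdh1 was not called. Markers of heart muscle summed to 999 CPM in tumor-bearing lung 6879 and to 683 CPM in the repeat library of normal lung 6886, against 16.6 to 46.0 CPM in the other 11 libraries.

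The stretch before a RefSeq start site (build GRCm38.p6) was examined for 6 of the 10 genes. The other genes were not examined in this way, and whether RefSeq holds a start site for them is not stated here. The stretches of 250 bases before the start of Acta2, Cnn1 and Des are shown because these genes are of the same contractile programme but lay far apart in the tumors, where Acta2 was at 72.0%, Cnn1 at 4.83% and Des at 2.87% of its CPM in the normal lungs of batch 2. The CArG box was searched on both strands by its name's usual form, and capitals mark the matches in which 1 inner base may differ.

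Acta2: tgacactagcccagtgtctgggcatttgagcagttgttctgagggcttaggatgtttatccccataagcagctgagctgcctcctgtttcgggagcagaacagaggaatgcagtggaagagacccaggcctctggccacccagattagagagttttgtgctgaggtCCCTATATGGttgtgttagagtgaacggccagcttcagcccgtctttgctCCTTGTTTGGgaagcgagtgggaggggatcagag
Cnn1: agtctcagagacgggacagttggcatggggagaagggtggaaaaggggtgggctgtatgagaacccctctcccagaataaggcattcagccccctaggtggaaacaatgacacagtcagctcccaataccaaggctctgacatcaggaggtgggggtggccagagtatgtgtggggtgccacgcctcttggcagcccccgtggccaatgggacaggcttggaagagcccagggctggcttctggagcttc
Des: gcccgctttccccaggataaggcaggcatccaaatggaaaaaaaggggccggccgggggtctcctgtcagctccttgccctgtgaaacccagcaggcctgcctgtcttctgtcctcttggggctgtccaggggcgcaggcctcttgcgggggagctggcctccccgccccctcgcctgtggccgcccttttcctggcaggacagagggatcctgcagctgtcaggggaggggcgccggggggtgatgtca

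The Acta2 stretch lies at chr19:34255374-34255623 on the minus strand, the Cnn1 stretch at chr9:22099003-22099252 on the plus strand and the Des stretch at chr1:75360042-75360291 on the plus strand. Acta2 held 2 such matches, CCCTATATGG and CCTTGTTTGG, which begin 84 and 34 bases before the start and do not overlap. None of the 6 genes held a match with every inner base A or T, and Acta2 was the only 1 of the 6 with a match that allows 1 other base. Lmod1 and Smtn, without a match, were in the tumors at 132% and 113% of their CPM in the normal lungs of batch 2. Mylk, also without a match, was at 4.36%. A link between the element and these levels was not tested. Over 32851 RefSeq promoters, from 250 bases before to 50 bases after the start, 1.63% held the strict form and 9.98% the form with 1 difference. These letters describe the window alone: the other 5 genes (Cnn1, Des, Lmod1, Smtn and Mylk) may hold the element elsewhere.

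The genes could be told apart by their reads. The share of stretches of 31 bases that also occur in transcripts of another gene was 1.39% in Acta2, 1.21% in Actg2 and 0.905% in Myh11, most of it shared with the non-muscle myosin Myh9 in the case of Myh11. It was at most 0.16% in the other 7 genes. The actins Acta2 and Actg2 encode nearly the same protein, and their coding sequences were 83.8% identical over 1128 aligned bases. The 75 bases around their longest identical run, which has 29 bases, are shown because a read of this length is what had to separate them, and capitals mark the bases that differ.

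Acta2, coding bases 614 to 688: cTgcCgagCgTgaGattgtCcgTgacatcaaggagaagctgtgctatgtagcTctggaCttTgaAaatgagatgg
Actg2, coding bases 611 to 685: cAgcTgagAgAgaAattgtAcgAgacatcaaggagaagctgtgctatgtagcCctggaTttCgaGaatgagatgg

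No window of 75 aligned coding bases held fewer than 5 differences between these actins.

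Per gene length, Tagln had the highest group mean of the 10 genes in each tissue, at 5.50 ± 1.74 TPM in normal lung (SD, n = 4), 2.77 ± 0.59 TPM in tumor-bearing lung (SD, n = 4) and 2.06 ± 0.45 TPM in tumors (SD, n = 3). It came first in each of the 4 normal lungs, but below Acta2 in tumor-bearing lungs 6879 (2.03 against 2.56 TPM) and 6881 (2.73 against 2.89 TPM), below Mylk in tumor-bearing lung 6880 (3.49 against 3.81 TPM) and below Smtn in tumor 6881 (2.29 against 2.38 TPM). By the group means in normal lung Mylk (3.71 ± 1.73 TPM), Acta2 (3.47 ± 1.98 TPM), Des (3.24 ± 0.94 TPM), Smtn (2.38 ± 0.61 TPM) and Pdgfrb (2.00 ± 1.50 TPM) followed. Myh11 (1.08 ± 0.73 TPM), Actg2 (0.75 ± 0.44 TPM), Cnn1 (0.59 ± 0.20 TPM) and Lmod1 (0.16 ± 0.08 TPM) closed the order. The means of neighbours in this order differed by less than the larger of their SDs, except Tagln from Mylk and Cnn1 from Lmod1. These SDs span both batches. Within each of the 4 normal lungs Des was above Smtn, Pdgfrb above Myh11 and Myh11 above Actg2. Mylk and Acta2, Acta2 and Des, Smtn and Pdgfrb, and Actg2 and Cnn1 changed places between lungs. In tumors the order of the means was different: Tagln was followed by Smtn at 1.92 ± 0.46 TPM and Acta2 at 1.19 ± 0.17 TPM, while Mylk stood at the seventh place, after the second in normal lung, with 0.09 ± 0.03 TPM, and Des at the eighth, after the fourth, with 0.07 ± 0.05 TPM. Cnn1 was last in tumors, at 0.02 ± 0.01 TPM.

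**Figure D1:**
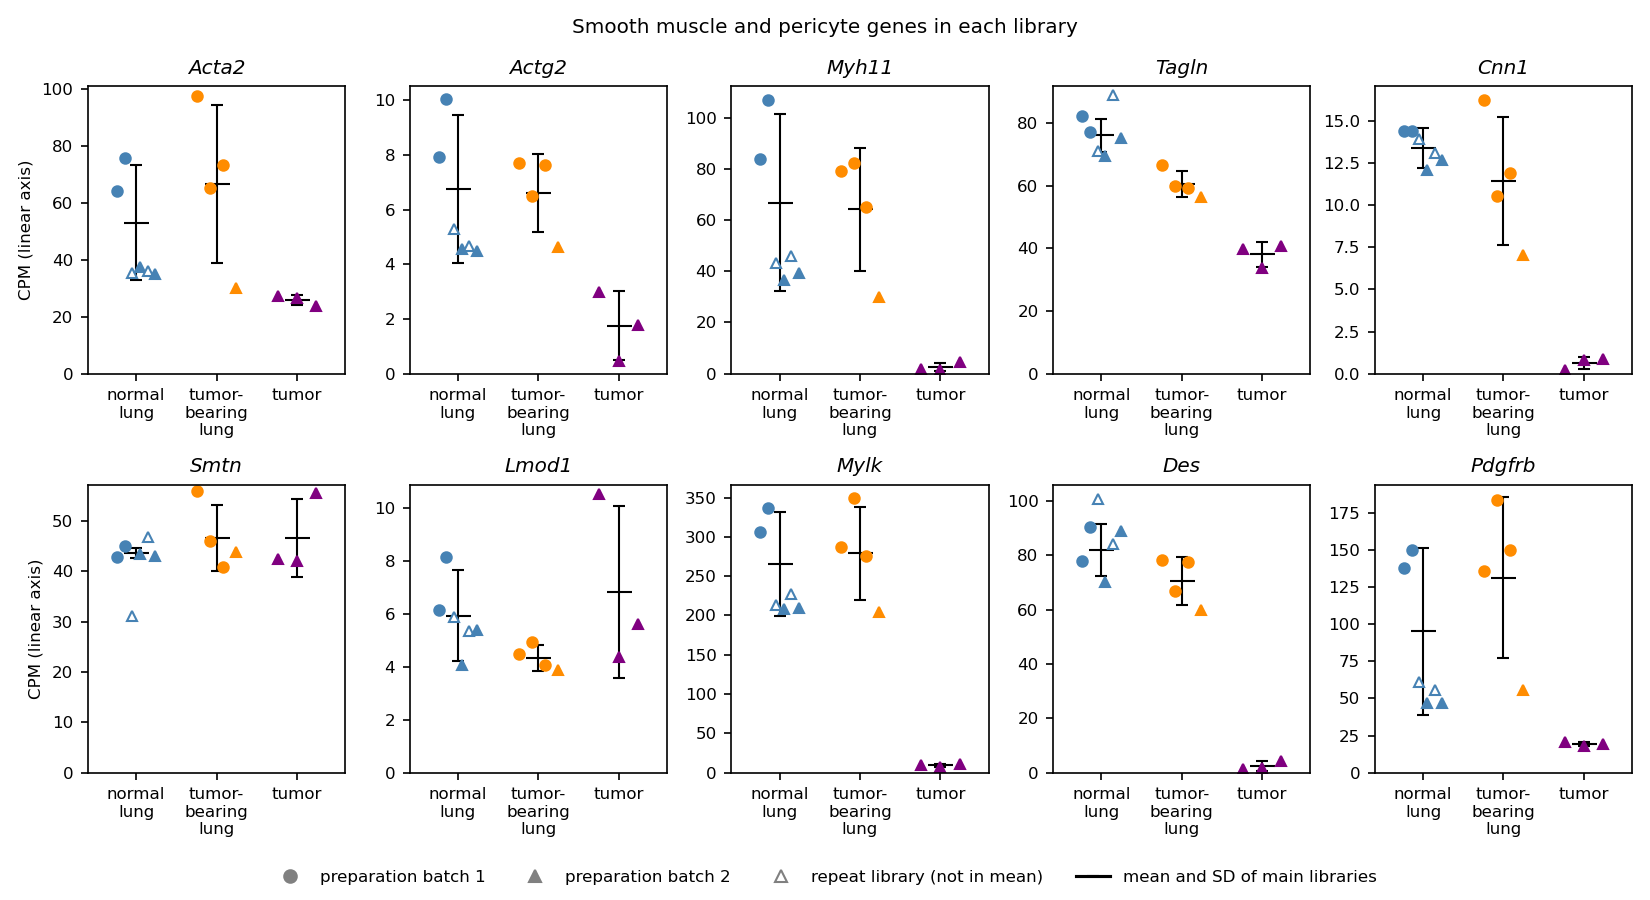
CPM of each of the 10 genes (linear axes from 0) in every library of normal lung, tumor-bearing lung and tumor; circles are preparation batch 1, filled triangles batch 2, open triangles repeat libraries, and black marks the mean and SD of the 4, 4 and 3 main libraries. Myh11, Cnn1, Mylk and Des are near 0 in all 3 tumors, and Smtn and Lmod1 overlap between tissues. Acta2, Actg2, Myh11, Mylk and Pdgfrb of the lungs split by batch.

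The tumors held far less RNA of the myosin motor, its kinase, calponin and desmin than either lung group, and less of Pdgfrb and Tagln, whereas Acta2, Smtn and Lmod1 were not called. Against normal lung 7 of the 10 genes were called lower and 0 higher, with 24.7% of the 18297 genes tested called lower and 24.5% higher. Against tumor-bearing lung 6 were called lower and 0 higher, with 23.7% of all genes called lower and 22.6% higher. DESeq2 called 7 lower and 0 higher in each, where it called 25.2% of all genes lower and 25.0% higher against normal lung and 23.9% in either direction against tumor-bearing lung. At an unadjusted p below 0.05 edgeR gave 7 genes against normal lung, all lower, beside 55.0% of all genes in either direction. It gave 8 against tumor-bearing lung, of which Lmod1 was higher, beside 53.3% of all genes. All tumors lay below all lungs in CPM for 8 of the 10 genes in each comparison, beside 26.4% of all genes against normal lung and 27.4% against tumor-bearing lung. The median log2 fold change of the 10 genes was −1.41 against normal lung, beside −0.04 over all genes tested, and −1.40 against tumor-bearing lung, beside −0.10. The same 3 tumors serve both comparisons. In whole tissue, fewer cells of a type and less RNA per cell cannot be told apart.

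Myh11, the heavy chain of smooth muscle myosin (chr16:14194535-14291372, mm10), was at 1.80, 1.33 and 4.44 CPM in tumors 6877, 6880 and 6881. It was at 84.1, 36.7, 107 and 39.5 CPM in normal lungs 6886, 6887, 6888 and 6893, and at 30.1, 79.2, 82.5 and 65.2 CPM in tumor-bearing lungs 6877, 6879, 6880 and 6881. Every tumor lay below every lung, by a factor of more than the spread within any group. The log2 fold change was −3.90 ± 0.36 (SE) against normal lung, with edgeR's adjusted p of 4.41e-06, and −3.56 ± 0.38 against tumor-bearing lung, with 1.72e-05. Mylk, the kinase that starts contraction (chr16:34745210-35002420), was at 9.22, 7.65 and 11.2 CPM in the tumors against 208 to 337 CPM in normal lungs and 204 to 349 CPM in tumor-bearing lungs. It fell 22.6-fold against normal lung (log2 −4.50 ± 0.21, edgeR's adjusted p = 2.69e-08) and 21.6-fold against tumor-bearing lung (log2 −4.44 ± 0.22, adjusted p = 5.42e-08).

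Cnn1, calponin, which binds actin and restrains the motor (chr9:22099216-22109630), was at 0.24, 0.78 and 0.86 CPM in tumors 6877, 6880 and 6881, from 2.0, 9.8 and 10.6 estimated counts. It was at 14.4, 12.1, 14.4 and 12.7 CPM in the normal lungs, a narrow range, and at 7.05, 16.3, 10.6 and 11.9 CPM in tumor-bearing lungs 6877, 6879, 6880 and 6881. Cnn1 fell 17.1-fold against normal lung (log2 −4.10 ± 0.38, edgeR's adjusted p = 4.18e-06) and 13.1-fold against tumor-bearing lung (log2 −3.72 ± 0.41, adjusted p = 2.17e-05). Des, the intermediate filament protein of muscle and of many pericytes (chr1:75360329-75368579), was at 1.32, 1.64 and 4.44 CPM in the tumors. It was at 77.9, 70.1, 90.4 and 89.1 CPM in the normal lungs and at 60.0, 78.3, 67.0 and 77.6 CPM in tumor-bearing lungs 6877, 6879, 6880 and 6881. Its fall was the largest of the 10 genes, with a log2 fold change of −4.93 ± 0.37 against normal lung (edgeR's adjusted p = 9.38e-07) and −4.67 ± 0.39 against tumor-bearing lung (2.67e-06). Heart muscle also makes desmin. Tumor-bearing lung 6879, with a high sum of heart markers, had 78.3 CPM of Des, the highest of its group. Lung 6881 of that group, with a sum of 45.2 CPM, had 77.6 CPM of Des. The repeat library of normal lung 6886, the other library with a high sum, had 101 CPM, the highest of all lungs. The part of heart muscle in these values of Des was not tested.

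The actins lay much closer to the lung. Acta2, the smooth muscle alpha actin that is the standard stain for these cells and for myofibroblasts (chr19:34241090-34255590), was at 27.2, 26.6 and 23.9 CPM in tumors 6877, 6880 and 6881. It was at 64.1 and 75.8 CPM in normal lungs 6886 and 6888 of batch 1, at 37.3 and 35.0 CPM in normal lungs 6887 and 6893 of batch 2, at 97.3, 65.3 and 73.1 CPM in tumor-bearing lungs 6879, 6880 and 6881 of batch 1 and at 30.1 CPM in tumor-bearing lung 6877 of batch 2. The tumors lay below every lung, but within batch 2 by little. With the batch as a term Acta2 was not called, at a log2 fold change of −0.41 ± 0.20 against normal lung (edgeR's adjusted p = 0.105) and −0.43 ± 0.22 against tumor-bearing lung (0.138). In batch 2 alone, with the repeat libraries in place of the batch 1 libraries, the 4 normal lungs had 36.0 ± 1.01 CPM (SD), the tumors stood at 72.0% of that, and edgeR called Acta2 lower at a log2 of −0.46 ± 0.13 with an adjusted p of 0.014. Actg2, the gamma actin of enteric smooth muscle (chr6:83512905-83536265), was at 2.99, 0.47 and 1.79 CPM in the tumors, 4.47 to 10.0 CPM in normal lungs and 4.64 to 7.71 CPM in tumor-bearing lungs. It was called lower against normal lung (log2 −1.50 ± 0.48, edgeR's adjusted p = 0.0232), a call lost without normal lung 6887 (adjusted p = 0.0533), and was not called against tumor-bearing lung (log2 −1.31 ± 0.52, 0.0591). Against tumor-bearing lung, leaving out tumor 6877 brought Actg2 to a log2 of −1.88 with an adjusted p of 0.0113.

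Tagln, transgelin or SM22, an actin-bundling protein used as an early marker of the smooth muscle lineage (chr9:45929619-45936058), was at 39.7, 33.6 and 40.9 CPM in the tumors. It was at 82.2, 69.5, 77.2 and 75.3 CPM in normal lungs 6886, 6887, 6888 and 6893 and at 56.5, 66.5, 59.8 and 59.4 CPM in tumor-bearing lungs 6877, 6879, 6880 and 6881. The 3 groups did not overlap, with tumors lowest and normal lungs highest. Tagln fell 1.92-fold against normal lung (log2 −0.94 ± 0.15, edgeR's adjusted p = 0.000303) and 1.49-fold against tumor-bearing lung (log2 −0.58 ± 0.17, 0.014). The second call was lost without tumor-bearing lung 6877, the 1 tumor-bearing lung prepared in the batch of the tumors (adjusted p = 0.0805), and in batch 2 alone (0.093), with a log2 fold change of −0.57 and −0.53.

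Smtn and Lmod1 did not follow the motor genes. Smtn, smoothelin, a cytoskeletal protein of contractile smooth muscle (chr11:3517523-3540612), was at 42.5, 42.0 and 55.6 CPM in the tumors, 43.0 to 45.1 CPM in normal lungs and 41.0 to 55.9 CPM in tumor-bearing lungs. Its log2 fold change was 0.12 ± 0.18 against normal lung and 0.04 ± 0.20 against tumor-bearing lung, with edgeR's adjusted p of 0.615 and 0.889. Lmod1, leiomodin, which nucleates actin filaments (chr1:135324807-135368065), was at 10.5, 4.37 and 5.61 CPM in tumors 6877, 6880 and 6881. It was at 4.07 to 8.17 CPM in normal lungs and 3.87 to 4.96 CPM in tumor-bearing lungs, and tumor 6877 was the highest library of all. Its log2 fold change was 0.43 ± 0.36 against normal lung (edgeR's adjusted p = 0.348) and 0.96 ± 0.39 against tumor-bearing lung (0.0646). Leaving out tumor 6880 brought Lmod1 past the threshold against tumor-bearing lung (log2 1.21, adjusted p = 0.0231), and leaving out tumor 6877 moved its value against normal lung from 0.43 to −0.003.

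Pdgfrb, the receptor by which pericytes answer endothelial growth factor (chr18:61045150-61085061), was at 20.5, 18.3 and 19.4 CPM in the tumors. It was at 138 and 150 CPM in the batch 1 normal lungs 6886 and 6888, at 47.0 and 46.8 CPM in the batch 2 normal lungs 6887 and 6893, at 136, 184 and 150 CPM in the batch 1 tumor-bearing lungs 6879, 6880 and 6881, and at 56.0 CPM in the batch 2 tumor-bearing lung 6877. Every tumor lay below every lung of either batch. Pdgfrb fell 2.49-fold against normal lung (log2 −1.32 ± 0.17, edgeR's adjusted p = 4.89e-05) and 2.80-fold against tumor-bearing lung (log2 −1.49 ± 0.18, 4.58e-05). In batch 2 alone the fall against tumor-bearing lung was −1.49 ± 0.21, while without the batch term it was −2.77 ± 0.50.

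**Figure D2:**
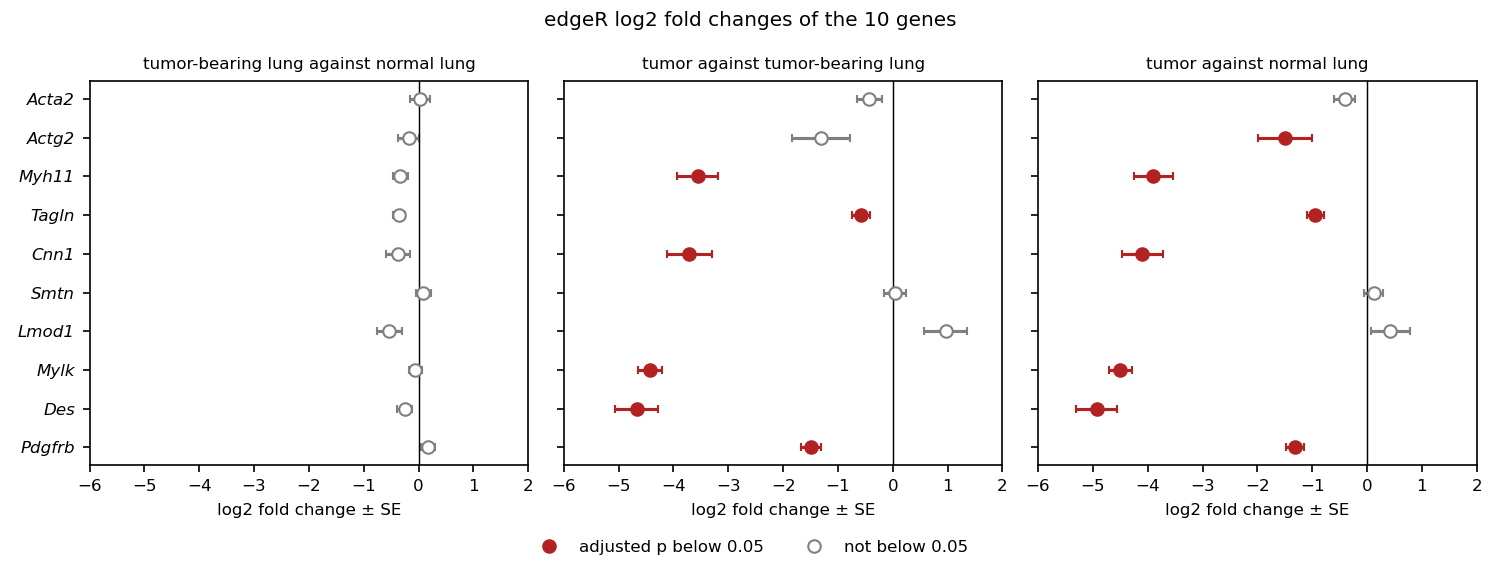
Log2 fold changes with SE of the 10 genes in the 3 comparisons, from edgeR with preparation batch as a term (8 lungs in the first panel, 11 libraries in the others); filled red marks an adjusted p below 0.05. Myh11, Cnn1, Mylk and Des lie between −3.56 and −4.93 in both comparisons of tumors, and no gene is called between the lungs.

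For Pdgfrb and Acta2, libraries of the same lung from both batches differed about as much as, or more than, the fitted folds of tumor against lung. In the 2 normal lungs prepared in both batches, the batch 1 library had 2.25 and 2.69 times the CPM of the batch 2 library for Pdgfrb in mice 6886 and 6888. The ratio was 1.95 and 2.34 for Myh11, 1.81 and 2.10 for Acta2, 1.50 and 2.16 for Actg2, and 1.43 and 1.48 for Mylk. It was 1.16 and 0.87 for Tagln, 1.04 and 1.10 for Cnn1, 0.77 and 1.08 for Des, 1.38 and 0.96 for Smtn, and 1.04 and 1.53 for Lmod1. Over all genes tested the median log2 ratio was 0.01 in mouse 6886 and 0.02 in mouse 6888, and 1.25% of genes were above 2-fold in both mice, among them Pdgfrb alone of the 10. Markers of endothelial cells summed to 4271 and 5055 CPM in the batch 1 libraries of these mice and to 2506 and 2465 CPM in their batch 2 libraries. The RNA of the signal recognition particle gene Rn7s1 took 15.1% and 12.9% of the counts in batch 1 and 29.7% and 33.9% in batch 2. The part of either in the ratios was not tested.

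**Figure D3:**
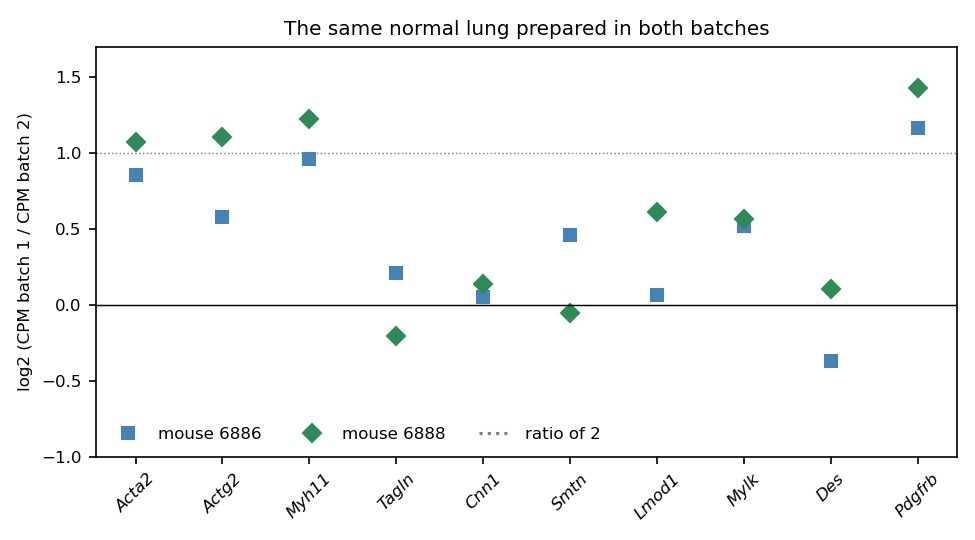
Log2 ratio of the CPM in the batch 1 library to that in the batch 2 library of the same normal lung, for each of the 10 genes in mouse 6886 (squares) and mouse 6888 (diamonds); the dotted line is a ratio of 2. Pdgfrb lies above the line in both mice, Acta2, Actg2 and Myh11 in mouse 6888, and Tagln, Cnn1, Smtn and Des lie nearer to 0.

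Between the lungs the comparison asks whether a distant tumor is accompanied by a change of these genes, and none was called. In tumor-bearing against normal lung 0 of the 10 genes were called higher and 0 lower by edgeR, where 0.012% of the 16727 genes tested were called higher and 0.0239% lower. DESeq2, which called 0.879% of all genes higher and 1.67% lower, also called 0 of the 10, as did limma voom. An unadjusted p below 0.05 was given by edgeR to 3 of the 10, beside 14.0% of all genes. These were Tagln (log2 −0.36 ± 0.11, edgeR's adjusted p = 0.235), Myh11 (−0.33 ± 0.14, 0.325) and Lmod1 (−0.53 ± 0.22, 0.338). The log2 fold change was negative for 7 genes and positive for 3, with a median of −0.22 beside 0.01 over all genes tested. The other values were −0.38 ± 0.22 for Cnn1, −0.26 ± 0.14 for Des, −0.18 ± 0.19 for Actg2, −0.06 ± 0.12 for Mylk, 0.03 ± 0.17 for Acta2, 0.08 ± 0.14 for Smtn and 0.18 ± 0.13 for Pdgfrb. The sign for Acta2, Smtn and Pdgfrb was negative on the log2 TPM scale, on which the median of all genes also moved to −0.23 with a pseudocount of 1. Tagln was the 1 gene of the 10 whose groups did not overlap in CPM, with every tumor-bearing lung (56.5 to 66.5 CPM) below every normal lung (69.5 to 82.2 CPM), and 3.05% of all genes had their tumor-bearing lungs all below. The repeat libraries, at 71.0 and 89.1 CPM, lay above the tumor-bearing lungs as well.

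The ratio of Pdgfrb to Myh11 sets a receptor gene of pericytes and fibroblasts against the smooth muscle motor within a library. Which cells carried the ratio was not tested. On the log2 TPM scale it was 3.84, 4.12 and 2.48 in tumors 6877, 6880 and 6881. It was 1.25, 1.13, 1.51 and 1.55 in tumor-bearing lungs 6877, 6879, 6880 and 6881, and 1.06, 0.71, 0.83 and 0.60 in normal lungs 6886, 6887, 6888 and 6893. No 2 of these groups overlapped. The tumors exceeded tumor-bearing lungs by 2.12 (exact permutation test, two-sided, p = 0.0571) and the 4 normal lungs of batch 2 by 2.78 (exact p = 0.0571), and 0.0571 is the smallest p that 3 against 4 samples allow. Tumor-bearing lungs exceeded normal lungs by 0.56 (exact p = 0.0286, the smallest that 4 against 4 allow), and adjusted over the 3 tests each p was 0.0571. Within batch 1 the tumor-bearing lungs stood at 1.13 to 1.55 against 0.83 and 1.06 in the normal lungs, and within batch 2 the 1 tumor-bearing lung stood at 1.25 against 0.60 to 0.85 in 4 normal lungs, repeat libraries included. With any 1 lung left out, 3 against 4 samples cannot pass 0.05, and the lung difference was then 0.49 to 0.65.

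**Figure D4:**
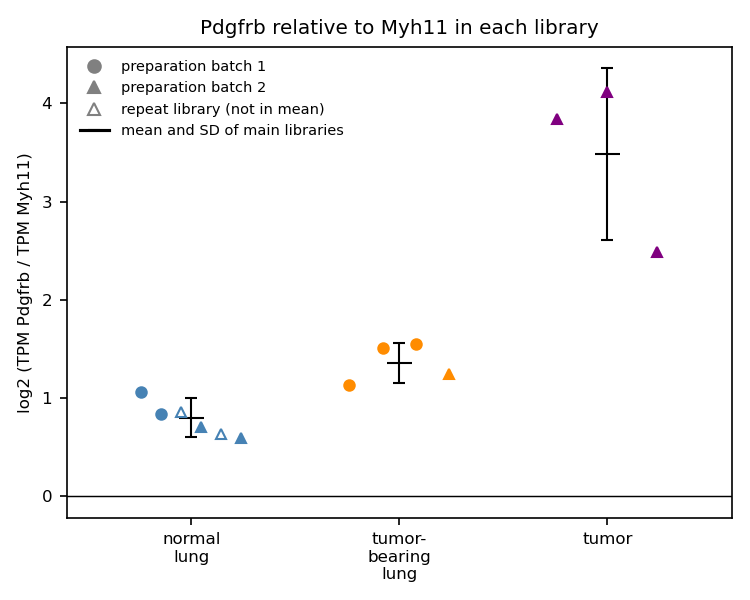
Log2 ratio of Pdgfrb to Myh11 in TPM in every library of normal lung, tumor-bearing lung and tumor; circles are batch 1, filled triangles batch 2, open triangles repeat libraries, and black marks the mean and SD of the main libraries. The tumors lie at 2.48 to 4.12, the tumor-bearing lungs at 1.13 to 1.55 and the normal lungs at 0.60 to 1.06.

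Other genes of the contractile apparatus were also lower in the tumors. For this list and those below, 24.7% of all genes tested were called lower and 24.5% higher against normal lung. Against tumor-bearing lung the shares were 23.7% and 22.6%. Of 23 further contractile and cytoskeletal genes 18 were called lower and 1 higher against normal lung, with a median log2 fold change of −1.77, and 16 were lower and 1 higher against tumor-bearing lung. Fhl1, a LIM protein of striated and smooth muscle, fell by 6.16 ± 0.32 on the log2 scale (edgeR's adjusted p = 5.89e-08), and Ppp1r14a, the inhibitor of myosin phosphatase, fell by 5.54 ± 0.29 (6.3e-08). Synm, an intermediate filament partner of desmin, fell by 3.75 ± 0.20 and Itga1, a collagen receptor subunit, fell by 3.37 ± 0.23. The 1 gene called higher was Pdlim7 (0.84 ± 0.19, adjusted p = 0.00267), and the 4 not called, Actn1 (−0.29 ± 0.23), Flna (−0.21 ± 0.17), Hspb6 (0.41 ± 0.27) and Tpm1 (0.06 ± 0.26), include actin crosslinkers found in many cell types; these 5 were named after their values were seen. All 6 genes of nitric oxide and cyclic GMP signaling, by which smooth muscle relaxes, were called lower in both comparisons, with a median of −4.60 against normal lung. Among them the guanylate cyclase subunits Gucy1a1 and Gucy1b1 changed by −5.95 ± 0.37 and −5.34 ± 0.32 on the log2 scale, the phosphodiesterase Pde3a by −4.72 ± 0.22 and the kinase Prkg1 by −4.48 ± 0.29.

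The transcriptional regulators were split. Of 13 tested of 14 listed, 6 were called lower and 1 higher in each comparison of tumors, with a median of −0.59 against normal lung. The receptor Notch3 changed by −2.63 ± 0.18, its ligand Jag1 by −2.63 ± 0.18, its target Heyl by −2.73 ± 0.46 and the repressor of contractile genes Klf4 by −3.95 ± 0.34 on the log2 scale, each with an adjusted p of edgeR below the threshold. Srf, the serum response factor itself, was not called at −0.28 ± 0.19, nor were its coactivators Mrtfa at 0.03 ± 0.22 and Mrtfb at −0.16 ± 0.20. Their relative Myocd, the coactivator myocardin, was called lower at −3.04 ± 0.72 (adjusted p of edgeR = 0.00428), from 4.27 ± 1.10 CPM in normal lung (SD, n = 4) to 0.51 ± 0.37 CPM in tumors (SD, n = 3). These 4 and Elk1, the 1 gene called higher (0.97 ± 0.21), were named after their values were seen.

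Most other pericyte genes were called lower as well, and 1 was called higher. Of 12 pericyte genes 8 were called lower and 1 higher in each comparison of tumors, with a median of −2.70 against normal lung. Cox4i2 and Ndufa4l2, subunits tied to mitochondrial respiration, changed by −4.70 ± 0.22 and −3.24 ± 0.23 on the log2 scale, Higd1b by −4.07 ± 0.29 and the cation channel Trpc6 by −4.28 ± 0.32. Rgs5, a regulator of G protein signaling often used to mark pericytes, was the 1 gene called higher. It was at 39.3 ± 3.98 CPM in tumors (SD, n = 3) against 7.86 ± 0.70 CPM in normal lung and 5.09 ± 1.11 CPM in tumor-bearing lung (SD, n = 4 each). The log2 fold change was 2.43 ± 0.21 (edgeR's adjusted p = 2.93e-06) and 3.11 ± 0.25 (1.89e-06), and Rgs5 was named after its value was seen. Of the growth factors, Pdgfb, the ligand of Pdgfrb that endothelium supplies, changed by −1.93 ± 0.22 and Pdgfa by −0.93 ± 0.17, the receptor Pdgfra by −2.09 ± 0.20, and Pdgfc rose by 4.23 ± 0.37 on the log2 scale, from 1.32 ± 0.39 CPM in normal lung to 32.7 ± 10.6 CPM in tumors. Of the 5 genes of this list 4 were called lower and 1 higher in both comparisons of tumors.

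**Figure D5:**
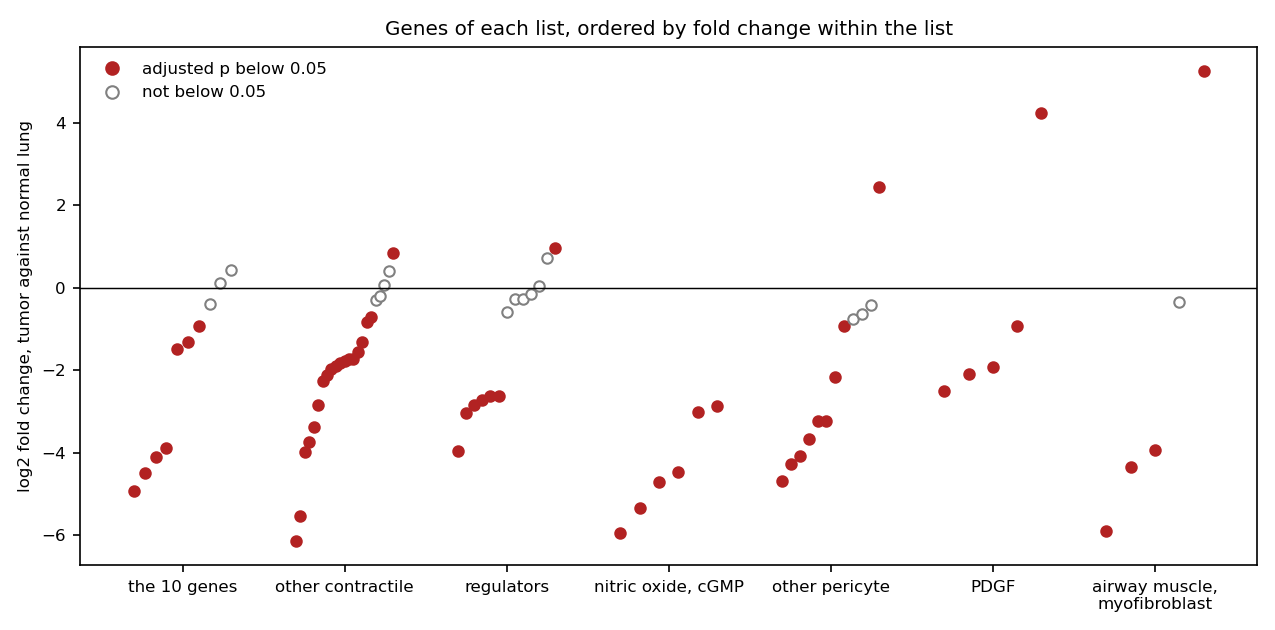
Log2 fold change of tumor against normal lung for the 10 genes and for 6 lists of related genes, ordered within each list; filled red marks an adjusted p of edgeR below 0.05, and Hhip, with 0 counts in the tumors, is left out. All genes of nitric oxide and cyclic GMP signaling lie below 0, and Rgs5, Pdgfc and Lgr6 lie far above the rest of their lists.

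Markers of other cell types differed too. Among 6 genes of airway smooth muscle and alveolar myofibroblasts 4 were called lower and 1 higher in both comparisons. Hhip, a hedgehog-binding protein, had 0 counts in the tumors against 15.9 ± 7.76 CPM in normal lung, where the lowest main library had 8.03 CPM. The normal lung mean was 180 times a floor of 3 counts over the tumors. This mean pools both batches, while all tumors are of batch 2, and no batch term enters the ratio. Mustn1 changed by −4.35 ± 0.41 and Actc1, an actin of heart muscle, by −5.91 ± 0.86 on the log2 scale, while Lgr6 rose by 5.27 ± 0.54 to 87.0 ± 31.6 CPM in tumors. All 9 endothelial markers were called lower in both comparisons, and their sum ran from 89.2 to 134 CPM in tumors, from 2248 to 5055 CPM in the libraries of normal lungs and from 2249 to 4143 CPM in those of tumor-bearing lungs. Myoepithelial cells also make Acta2, Myh11 and Cnn1. Of their 7 markers 3 were tested and 2 called higher, Trp63 and Krt14, which rose to 6.09 ± 3.26 and 7.26 ± 3.25 CPM in tumors from 0.21 ± 0.10 and 0.12 ± 0.13 CPM in normal lung. The sum of the 7 ran from 56.1 to 83.4 CPM in tumors and from 39.4 to 68.8 CPM in the libraries of normal lungs, most of it from Cxcl14, at 46.8 ± 3.54 and 60.6 ± 7.92 CPM. Of 11 fibroblast markers 5 were called higher and 3 lower against normal lung. Lum rose by 3.05 ± 0.31 and Col1a1 by 2.19 ± 0.32 on the log2 scale, while Dpt changed by −2.81 ± 0.25. Tcf21, also called lower, had 1 count in the tumors, 1730 times below the normal lung mean (95% counting interval 310 to 68100). That mean too pools both batches without a batch term. Fat cell markers, 4 tested of 5, were all called higher, with a sum of 101 to 262 CPM in tumors against 5.60 to 22.1 CPM in the libraries of normal lungs. The part of these cells in the levels of the 10 genes was not tested.

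In tumor-bearing against normal lung edgeR called 0 genes of any of these lists. In the list of 23 contractile genes 5 had an unadjusted p below 0.05, beside 14.0% of all genes, and DESeq2 called 2 of the 23 lower and 0 higher, beside 1.67% of all genes lower and 0.879% higher. Among the 5 with an unadjusted p of edgeR below 0.05 were Myl9, the light chain that Mylk phosphorylates (log2 −0.66 ± 0.17, edgeR's adjusted p = 0.194), Cald1 (−0.65 ± 0.24, 0.292) and Jph2 (0.55 ± 0.21, 0.309). DESeq2 gave Myl9 an adjusted p of 0.0268. Jph2 was at a log2 of 0.37 without tumor-bearing lung 6879, which had the high sum of heart markers, and at 0.12 in batch 2 alone. The part of heart muscle in the value of Jph2 was not tested. Cald1 passed edgeR's threshold without tumor-bearing lung 6877 (log2 −1.13, adjusted p = 0.0218), and its sign was positive in batch 2 alone (log2 0.16, adjusted p = 0.773). The median of this list was 0.00. Of the 12 pericyte genes 1 had an unadjusted p below 0.05, a share below that of all genes, and it was Rgs5 at −0.68 ± 0.21 (adjusted p = 0.235), opposite in sign to its value in the tumors, and Cox4i2 (−0.28 ± 0.13), Vtn (−0.38 ± 0.24) and Kcnj8 (−0.57 ± 0.36) followed.

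The patterns of Myh11 and Pdgfrb over the libraries were most like those of different genes. Likeness was the root mean square difference of centred log2 CPM over the 11 libraries, among the 11795 genes whose mean log2 CPM was 2 or more. Closest to Myh11 were Crim1 (0.28), Npr2 (0.30), Kcna2 (0.33), Podxl (0.36) and Tie1 (0.38), and the nearest of the 10 genes was Mylk at rank 10 (0.40), followed by Des at rank 56 (0.53). Closest to Pdgfrb were Tln1 (0.21), Vcl (0.24), Arhgef17 (0.24), Col4a2 (0.27) and Ccn2 (0.27). The nearest of the 10 genes to Pdgfrb were Actg2 at rank 409 (0.63) and Acta2 at rank 442 (0.65), ahead of Myh11 at 1.12. These distances share the libraries, their batches and their depth, and are a description.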

How the data were processed

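Total RNA of whole lungs and tumors was depleted of ribosomal RNA and sequenced with single reads of 75 bases, per the labels' protocols. Values are the estimated counts and the TPM that the authors deposited, each in 1 table of 13 libraries from 8 mice, made with Salmon (version not given in the sources used here) per the submitters' processing notes, which also name DESeq2 1.18.1 and mm10. Count and TPM differed by 1 factor per gene and 1 per library (largest deviation 7.99e-15 on the log2 scale over 2863 genes), and counts were rounded before fitting. Every column belonged to a sample (0 did not). GENCODE M21, on GRCm38, gave a symbol to 46269 IDs and none to 410. Coordinates are from that annotation.

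The model of group plus preparation batch was fitted in edgeR 4.0.16 (R 4.3.3) after TMM scaling and filterByExpr. The mouse was the replicate, and the labels do not say how the library batches were set up beyond their number. Log2 CPM used a prior count of 2. Alternatives used DESeq2 1.42.0, limma 3.58.1 (voom, and log2 TPM with a pseudocount of 1 or 0.1), other factors, filters, batch choices, repeat libraries and leaving out each library. The fits were tested on simulated data. Lungs and tumors of mice 6877, 6880 and 6881 are paired by animal, per the labels; their residuals correlated by 0.18, 0.04 and −0.13 over 18796 genes. The counting interval and the floor cover counting error alone, since PCR copies of a molecule are not marked in these reads.

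The 10 genes, the 13 other lists and the tests were chosen with earlier results of these data known. Named genes are the 10, up to 4 of each list described with the smallest p in the comparison, and the 5 genes most like Myh11 and Pdgfrb; others are marked in the text. A gene that this rule names is not reported here.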

Additional observations from a re-analysis of the deposited data

Results flagged for a closer look

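Among 20 groups of libraries tested for a single value far from the others (the 10 genes in each lung group), 0 were found, where chance gives about 1 in 20. In a library outside the main comparisons, the batch 2 repeat of normal lung 6886, the heart muscle markers summed to 682.579 CPM, against 34.8 CPM in the batch 1 library of the same lung and 23.7 to 46.0 CPM in the other libraries of normal lungs. Des in that library was at 101 CPM.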

How the results depend on the processing

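In both comparisons of tumors Myh11, Cnn1, Mylk and Des stayed called lower in every fit but those on log2(TPM + 1), where Myh11 and Cnn1 lost the call against tumor-bearing lung. A pseudocount of 1 is close to or above the mean TPM of both genes in lung, and its part in the lost calls was not tested. With log2(TPM + 1) 2 of the 10 genes were called lower against tumor-bearing lung, and Pdgfrb lost its call in both comparisons, against tumor-bearing lung also with log2(TPM + 0.1). On this scale the calls over all genes split as 4142 higher and 1180 lower against tumor-bearing lung, 2643 and 3879 against normal lung, and 4 and 86 between the lungs; with log2(TPM + 0.1) the median of all genes between the lungs moved to −0.54. Leaving out each library gave 0 to 1 of the 10 called higher against tumor-bearing lung (Lmod1, without tumor 6880), and for the ratio of Pdgfrb to Myh11 between the lungs 0.4906 to 0.646, with an exact p of 0.0571 each, the smallest that 3 against 4 allow.

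With the mouse as a fixed replicate block over the 3 paired mice, without a batch term, 8 of the 10 genes were called lower against tumor-bearing lung. Of the 17419 genes tested in this fit 22.7% were called lower and 22.2% higher. Acta2 (−1.08, edgeR's adjusted p = 0.0339) and Actg2 (−2.12, 0.0396) joined and Pdgfrb was at −2.65. In 2 of these mice the lung was prepared in batch 1 and the tumor in batch 2. Tissue and batch cannot be told apart there, and these values carry both. The mouse as a random replicate block over all libraries called Acta2 lower against normal lung (−0.42, adjusted p = 0.0334).

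Signs changed only for values that were not called. Between the lungs Acta2 was at −0.0015 without a filter, −0.5194 and −0.6694 on log2 TPM with a pseudocount of 1 and 0.1, −0.2445 with the repeat libraries, −0.2492 in batch 2 alone and −0.1129 to 0.1822 with a library left out. Smtn was at −0.4188 and −0.5954 and Pdgfrb at −0.3696 and −0.5092 on the log2 TPM scales, Smtn at −0.007 to 0.1402 with a library left out, and Mylk at 0.0771 without the batch term. Cald1 was at 0.1657 with the repeat libraries and 0.161 in batch 2 alone, and Jph2 at −0.0644 and −0.1477 on the log2 TPM scales. Against tumor-bearing lung Acta2 was at 0.0996 and 0.0505 on the log2 TPM scales. Smtn was at −0.0091 with protein-coding genes alone, −0.0045 without the batch term and −0.099 to 0.1157 with a library left out. Against normal lung Smtn was at −0.0932 and −0.1375 on the log2 TPM scales and −0.0206 to 0.194 with a library left out, and Lmod1 at −0.0034 to 0.6727. The cause of these changes was not tested.

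Only 1 tumor-bearing lung shares the batch of the tumors, which limits that comparison to the estimate of the batch from lungs. Depth limits Cnn1 in tumors, with 2.0 to 10.6 estimated counts a library. Counts in tumors were also low for Actg2 (6.0 to 25.2), Des (11.2 to 56.5) and Myh11 (15.3 to 56.7), which enters the ratio with Pdgfrb.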
